A study of Rattus norvegicus with 12 samples.

Results

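A set of 10 genes of the non-muscle actin cytoskeleton and of focal adhesions were followed in failing and control rat hearts: the actin gene Actb, the actin monomer binder Tmsb10, the tropomyosin Tpm4, the non-muscle myosin heavy chain Myh9, the crosslinkers Actn1, Actn4 and Flna, and the adhesion proteins Tln1, Vcl and Zyx. Every probe set annotated to exactly 1 of these gene symbols was taken, which gave 13 of the 31042 probe sets tested and covered 8 of the 10 genes, among 14224 genes with such a probe set. The other two, Actb and Tmsb10, are carried by 3 probe sets that also match related genes, and these are described separately. Messenger RNA was measured on a 1-colour oligonucleotide array, 1 array for each heart, in 6 hearts labelled Failing and 6 labelled Control. The series concerns the passage from compensated hypertrophy to systolic failure in the spontaneously hypertensive rat, an inbred strain with high blood pressure; no label used here states strain, age or treatment by group. The extraction protocol names further failing groups given captopril, alone or with butyrate, which are not analysed here. One free-text label mentions a cell line, while the tissue label is heart. Markers of cardiac muscle were abundant, and the sarcomeric alpha-actinin Actn2 had a mean log2 intensity of 14.56 ± 0.20 in failing hearts, against 14.76 ± 0.31 in control hearts (SD, n = 6 each).

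Non-muscle actin filaments give cells their shape and tension. Tropomyosins coat them, myosin II pulls on them, and alpha-actinins and filamins crosslink them, while talin and vinculin tie them to integrins, the receptors for the extracellular matrix. In the heart these proteins are prominent in fibroblasts, vessels and blood cells. In cardiomyocytes vinculin and talin also lie at costameres and intercalated discs, whereas the sarcomere uses other isoforms, such as Actn2 and cardiac actin. In bulk tissue, more cells of a type and more RNA per cell cannot be told apart.

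Of the 13 probe sets, 1 was higher in failing hearts and 0 were lower at an adjusted p under 0.05 (limma, moderated test with a variance that follows the mean, Benjamini-Hochberg over all probe sets). Over all 31042 probe sets 1.82% of probe sets were called, 1.22% higher and 0.599% lower. These were 380 higher and 186 lower, and after median centring of the arrays 344 and 91. An unadjusted p under 0.05 was reached by 3 of the 13 probe sets, against 16.6% of all probe sets. The median log2 difference, failing minus control, was 0.26 over the 13 probe sets and -0.024 over all. All 13 lay above the median level of the array, and their log2 differences were positive in 7 and negative in 6.

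Control replicate 4 stood apart and bears on many of the values below. Some white blood cell transcripts, chosen here after their values were seen, were far higher in it than in any other heart. Nkg7, a granule protein of killer cells, ran from 3.43 to 6.90 in failing hearts, and was at 12.16 in control replicate 4 and between 4.43 and 7.01 in the other 5 control hearts (log2). It was the highest of the 12 hearts for 32 of the 77 probe sets of genes of actin filament dynamics (41.6%), against 12.2% of all probe sets and 9 of the 74 of focal adhesion partners (also 12.2%). It was the lowest for 10 of the 20 cardiomyocyte marker probe sets, against 8.05% of all. Many of the results that this heart changes are therefore also given without it. No scan dates or other batches were available, and intensities had been scaled to a common trimmed mean between 500.19 and 500.23, so a change common to most genes would not show.

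**Figure D1:**
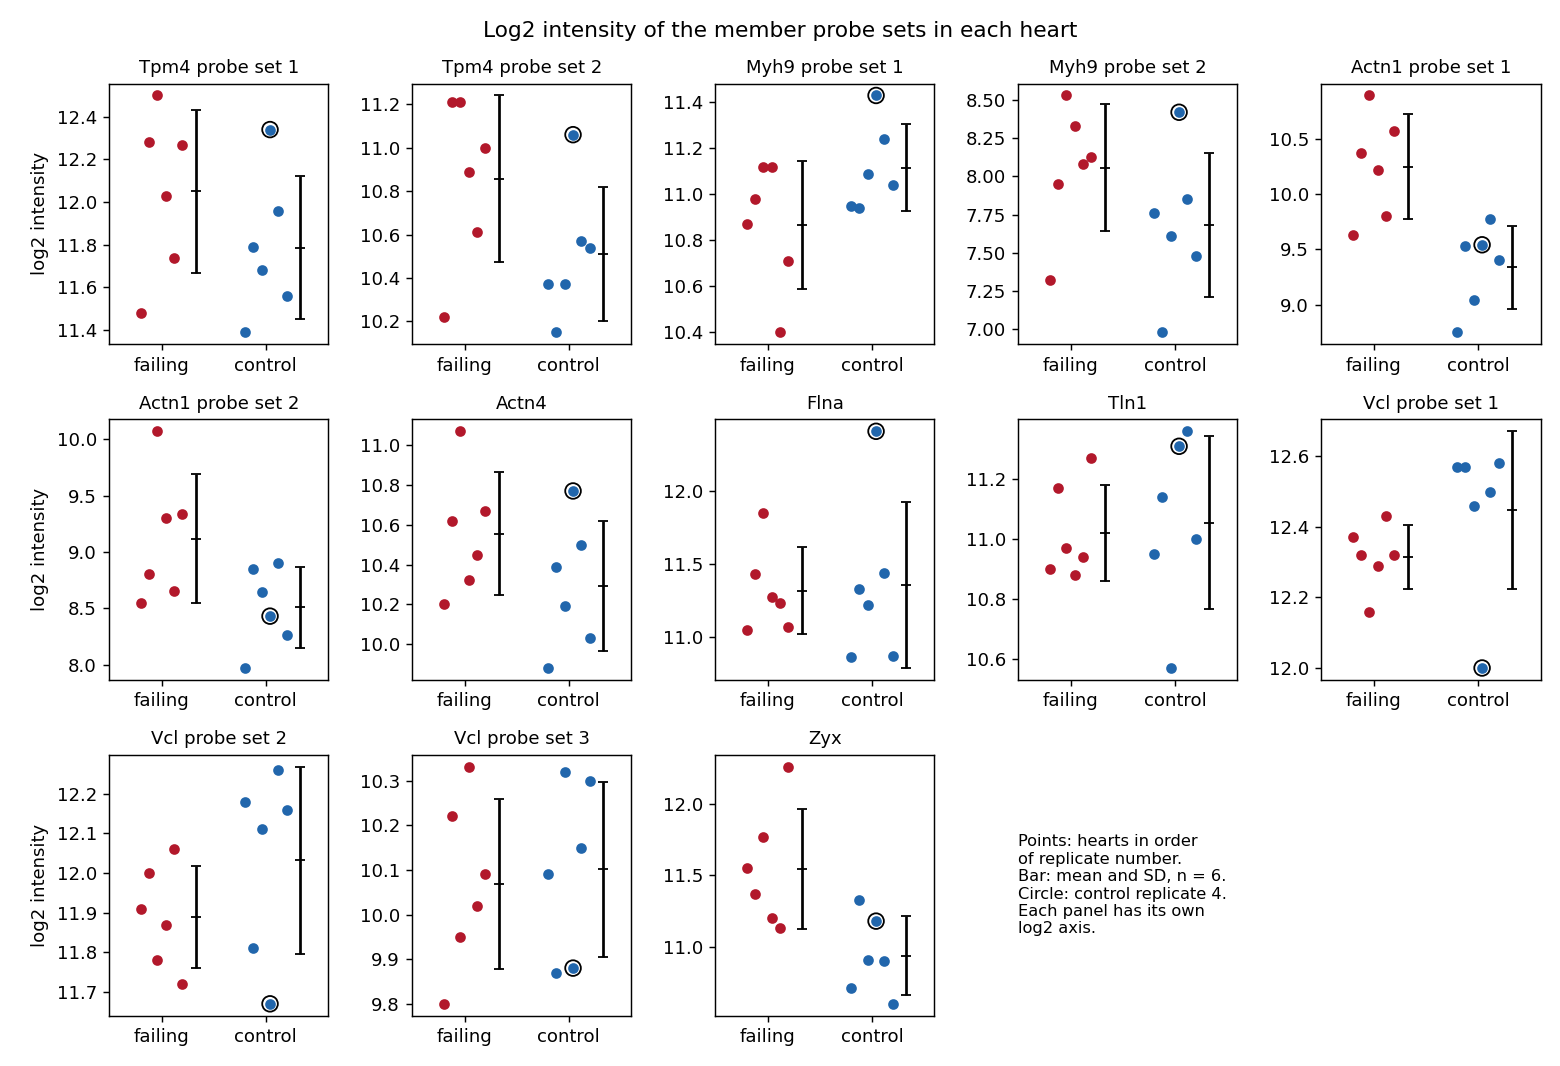
Log2 intensity (vertical axis, its own range in each panel) of the 13 member probe sets in 6 failing and 6 control hearts; bars are mean and SD, and the circle marks control replicate 4. For Actn1 probe set 1, 5 of 6 failing hearts lay above every control heart, while for Flna and Vcl probe set 1 control replicate 4 lay at the end of the range.

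Actn1, the alpha-actinin of stress fibres and focal adhesions, was higher in failing hearts. In its brighter probe set the log2 intensity was at lowest 9.63, at the median 10.29 and at highest 10.89 in failing hearts, against 8.75, 9.46 and 9.77 in control hearts. All 6 failing hearts exceeded the control median, and 5 exceeded every control heart; the groups overlapped only through failing replicate 1. The means were 10.25 ± 0.47 in failing and 9.34 ± 0.37 in control hearts (SD, n = 6 each), a rise of 0.91 ± 0.21 (log2, SE), or 1.88-fold with a 95% interval from 1.39 to 2.54 (limma adjusted p = 0.0371, exact permutation p = 0.00433, two-sided). The second probe set ran in the same direction, with 8.55, 9.05 and 10.07 in failing hearts against 7.97, 8.53 and 8.90 in control hearts. Its difference was 0.61 ± 0.24 and did not pass (adjusted p = 0.192). Failing replicate 3 was the highest heart in both probe sets.

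For most hearts, leaving out that 1 heart lost the Actn1 call, and over all probe sets the call rested on the variance model. With any of failing replicates 2, 3, 4 and 6 or control replicates 1, 2, 3 and 6 left out, the limma adjusted p was between 0.0613 and 0.0967, with differences from 0.78 to 0.95, whereas without control replicate 4 it was 0.0182. With a constant prior variance 0 of the 31042 probe sets passed, 4495 had an unadjusted p under 0.05, and the adjusted p of Actn1 was 0.16. With the same variance among the brighter probe sets alone, its limma adjusted p was 0.0419.

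Actn4, the close relative of Actn1 that is likewise found on non-muscle actin bundles, gave a smaller difference. It stood at 10.20, 10.53 and 11.07 in failing hearts (lowest, median, highest), against 9.88, 10.29 and 10.77 in control hearts, a difference of 0.26 ± 0.16 (95% interval -0.07 to 0.60, adjusted p = 0.444). The groups overlapped over most of their range. Without control replicate 4 the Actn4 difference was 0.36 (adjusted p = 0.183). Within each heart, the log2 difference Actn1 minus Actn4 was larger in failing hearts by 0.64, above the control median in 6 of 6 failing hearts (exact permutation p = 0.00433, adjusted p = 0.013 over 3 such differences, chosen after the values were seen). Set against the sarcomeric relative Actn2, the difference Actn1 minus Actn2 was larger in failing hearts by 1.11 (exact permutation p = 0.0108, adjusted p = 0.0162). Actn2 itself differed by -0.20 ± 0.15 (adjusted p = 0.553), and by -0.32 without control replicate 4 (adjusted p = 0.115). Without control replicate 4 these 2 within-heart differences were 0.59 and 1.27 (exact permutation p = 0.00866 and 0.00649). Both hold the Actn1 values already tested above, so they are not a separate test of its rise. The adjustment over 3 differences does not cover the choice of Actn1.

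**Figure D2:**
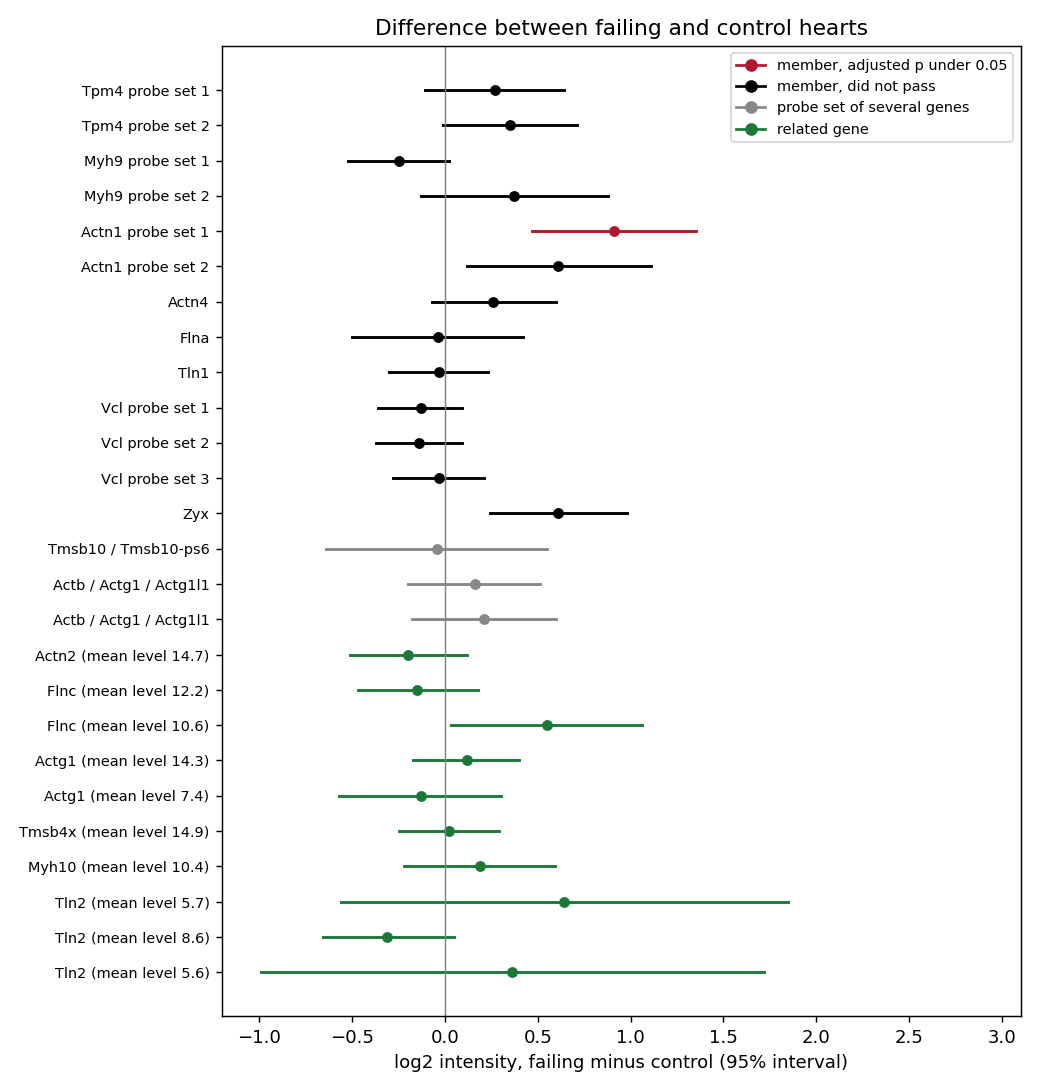
Log2 difference, failing minus control, with 95% intervals from limma (horizontal axis) for the 13 member probe sets, the 3 probe sets of several genes and the related genes Actn2, Flnc, Actg1, Tmsb4x, Myh10 and Tln2. The interval of Actn1 probe set 1 runs from 0.47 to 1.35, and those of Flna, Tln1 and Vcl include 0.

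Flna, filamin A, which crosslinks actin into networks and links it to integrins, showed no difference that passed. It ran from 11.05 to 11.85 with a median of 11.25 in failing hearts, and from 10.86 to 12.41 with a median of 11.27 in control hearts. The highest value of all belonged to control replicate 4, 1.27 above the mean of the other control hearts. The difference was -0.039 ± 0.22 (95% interval -0.50 to 0.42, adjusted p = 0.958), and 0.17 without that heart (adjusted p = 0.573). The muscle filamin Flnc gave -0.15 ± 0.15 in its brighter probe set and 0.55 ± 0.24 in the other (adjusted p = 0.694 and 0.266).

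Zyx, zyxin, a LIM protein that moves to strained actin fibres and adhesions, lay close to the threshold. Failing hearts held 11.13, 11.46 and 12.26 (lowest, median, highest), against 10.60, 10.91 and 11.33 in control hearts. All 6 failing hearts exceeded the control median and 4 exceeded every control heart, with failing replicate 6 the highest. The difference was 0.61 ± 0.17 (1.52-fold, 95% interval 1.18 to 1.97), with a limma adjusted p of 0.0807 and an exact permutation p of 0.013. It was 0.66 without control replicate 4 (adjusted p = 0.0417, where 6.10% of all probe sets were called). It was 0.69 without failing replicate 5 (adjusted p = 0.0383, where 1237 of the 31042 probe sets were called). With any other single heart left out Zyx did not pass (limma adjusted p up to 0.183). The smallest difference was 0.47, without failing replicate 6.

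Vcl, vinculin, which strengthens the bond between talin and actin under load, did not follow Actn1 and Zyx. Its brightest probe set ran from 12.16 to 12.43 with a median of 12.32 in failing hearts, and had a median of 12.54 and a highest value of 12.58 in control hearts. All 6 failing hearts lay below the control median. Of the 6 control hearts, 5 lay at 12.46 or above, over every failing heart, and the other, control replicate 4, was the lowest of the 12, 0.54 below the mean of the other controls. The difference was -0.13 ± 0.10 (95% interval -0.36 to 0.09, adjusted p = 0.571), and -0.22 without control replicate 4 (adjusted p = 0.0986). The other 2 Vcl probe sets gave -0.14 ± 0.11 and -0.032 ± 0.12 (adjusted p = 0.583 and 0.927). In the second probe set, too, 0 of 6 failing hearts exceeded the control median, against 2 of 6 in the third. Without control replicate 4 the difference of the second was -0.21 (adjusted p = 0.228).

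Tln1, talin 1, which activates integrins and carries vinculin, was at nearly the same level in both groups. It ran from 10.88 to 11.27 in failing hearts and from 10.57 to 11.36 in control hearts, with medians of 10.96 and 11.07. The difference was -0.032 ± 0.13, and the 95% interval of the fold ran from 0.813 to 1.18 (adjusted p = 0.936). The second talin gene, Tln2, gave -0.31 ± 0.17 in its brightest probe set (adjusted p = 0.383), and 0.64 ± 0.57 and 0.36 ± 0.64 in its dimmer ones (adjusted p = 0.633 and 0.84).

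Tpm4, a cytoskeletal tropomyosin, had 2 probe sets that ran together. The brighter held 11.48, 12.15 and 12.50 in failing hearts, against 11.39, 11.73 and 12.34 in control hearts, and the dimmer 10.22, 10.95 and 11.21 in failing hearts, against 10.15, 10.45 and 11.06 in control hearts. In both, 5 of 6 failing hearts exceeded the control median, failing replicate 1 was the lowest failing heart and control replicate 4 the highest control heart. The differences of 0.27 ± 0.18 and 0.35 ± 0.17 did not pass (adjusted p = 0.489 and 0.322). They were 0.38 and 0.46 without control replicate 4 (adjusted p = 0.195 and 0.0996).

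The 2 probe sets of Myh9, the heavy chain of non-muscle myosin IIA, ran in opposite directions. In the brighter failing hearts held 10.40, 10.93 and 11.12, against 10.94, 11.06 and 11.43 in control hearts, a difference of -0.25 ± 0.13 (adjusted p = 0.352). In the dimmer they held 7.32, 8.10 and 8.53, against 6.98, 7.68 and 8.42 in control hearts, a difference of 0.37 ± 0.24 (adjusted p = 0.476). Without control replicate 4 the differences were -0.18 and 0.52 (adjusted p = 0.452 and 0.203). Neither passed with or without that heart, and no direction is given for Myh9. Within each heart, the dimmer minus the brighter probe set was larger in failing hearts by 0.62. Over the same 3 within-heart differences, chosen after the values were seen, its exact permutation p was 0.0281 (adjusted p = 0.0281). Without control replicate 4 it was 0.70 (exact permutation p = 0.0216). The annotation lists the symbol for the dimmer probe set under 2 gene identifiers. Myh10, the heavy chain of myosin IIB, gave 0.19 ± 0.19 (adjusted p = 0.69).

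The cytoplasmic actins could be read only together. Both probe sets that match Actb also match Actg1 and Actg1l1. The first ran from 13.70 to 14.56 with a median of 14.18 in failing hearts, and from 13.73 to 14.58 with a median of 13.97 in control hearts. Failing replicates 2 and 3 and control replicate 4 were the highest, and the groups overlapped over nearly the whole range. The differences of the 2 probe sets were 0.16 ± 0.17 and 0.21 ± 0.18 (adjusted p = 0.704 and 0.63), and the upper ends of their 95% intervals were folds of 1.42 and 1.51. Without control replicate 4 the differences were 0.27 and 0.33 (adjusted p = 0.325 and 0.254). A set of 3 control probe sets placed along beta-actin differed between failing and control hearts by -0.035 at the 3′ end, 0.080 in the middle and -0.052 at the 5′ end (exact permutation p = 0.799, 0.762 and 0.797). The 3′ minus 5′ difference of these beta-actin probe sets, a sign of RNA integrity, ran from 0.72 to 0.97 in failing and from 0.49 to 1.03 in control hearts, lowest in control replicate 4. The probe set of Actg1 alone with the higher level gave 0.12 ± 0.14 (adjusted p = 0.73).

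The probe set that matches Tmsb10, thymosin beta 10, a small protein that holds actin monomers, also matches the pseudogene Tmsb10-ps6. It ran from 10.35 to 11.82 with a median of 10.86 in failing hearts, and from 10.62 to 12.31 with a median of 10.78 in control hearts. Control replicate 4 was the highest of all and failing replicate 3 next. The difference was -0.045 ± 0.28 (95% interval -0.64 to 0.55, adjusted p = 0.963), and 0.22 without control replicate 4, which did not pass either. The related Tmsb4x gave 0.019 ± 0.13 (adjusted p = 0.967).

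Across the 12 hearts most member genes varied together, while the brightest probe set of Vcl correlated negatively with the others. The brightest probe set of each of the 8 genes gave 28 pairs, and Pearson's r was positive in 19 of the 21 pairs without Vcl and negative in all 7 pairs with it. Probe sets of 1 gene gave r = 0.89 for Tpm4, 0.88 for Actn1 and 0.19 for Myh9 (adjusted permutation p = 0.00093, 0.00066 and 0.556 over 6 such pairs). For Vcl the first probe set gave r = 0.73 with the second and 0.29 with the third (adjusted permutation p = 0.0127 and 0.427). Within failing hearts these were 0.65 and -0.12, and within the control hearts other than replicate 4 they were -0.32 and -0.46. The Vcl correlations with other genes use the first probe set alone. In 8 of the 28 pairs both Pearson's r and Spearman's coefficient had a permutation p, adjusted over the 28, under 0.05. In all 8, r kept its sign and a size above 0.5 without the 2 hearts farthest from the median of the first-named gene. For Tpm4 with Vcl and Actn4 with Vcl, these 2 hearts did not include control replicate 4. Tpm4 and Actn4 were most alike (r = 0.93, permutation p = 1e-05, the smallest the permutations can give, adjusted p = 0.00028; Spearman's coefficient 0.92, adjusted permutation p = 0.00196). The r of this pair was 0.90 without the 2 farthest hearts, 0.87 within failing and 0.99 within control hearts. For Tpm4 and Actn1 r was 0.81 and Spearman's coefficient 0.74 (adjusted permutation p = 0.0135 and 0.0293). For Actn1 and Zyx r was 0.77 and Spearman's coefficient 0.74 (adjusted permutation p = 0.0137 and 0.0293), and r was 0.56 within failing and 0.45 within control hearts.

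Between Tpm4 and Vcl r was -0.78 and Spearman's coefficient -0.80 (adjusted permutation p = 0.0136 and 0.0211). This r was -0.70 without the 2 farthest hearts, -0.79 within failing and -0.85 within control hearts. It was -0.49 within control hearts once replicate 4 was left out. For Actn4 and Vcl r was -0.76 (adjusted permutation p = 0.0137). Within control hearts it was -0.76, and -0.43 once replicate 4 was left out. Between Flna and Vcl r was -0.82 (adjusted permutation p = 0.0135), but Spearman's coefficient of -0.64 did not pass (adjusted permutation p = 0.0747). This r was -0.34 without the 2 farthest hearts, -0.79 within failing hearts and -0.59 within control hearts other than replicate 4. The points share each array's scaling and the cell makeup of each heart. The summed intensity of cardiomyocyte markers was lowest in failing replicate 3 (415989) among failing hearts and in control replicate 4 (398415) among control hearts, the hearts in which the brightest Vcl probe set was lowest too. Its part in these correlations was not tested.

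**Figure D3:**
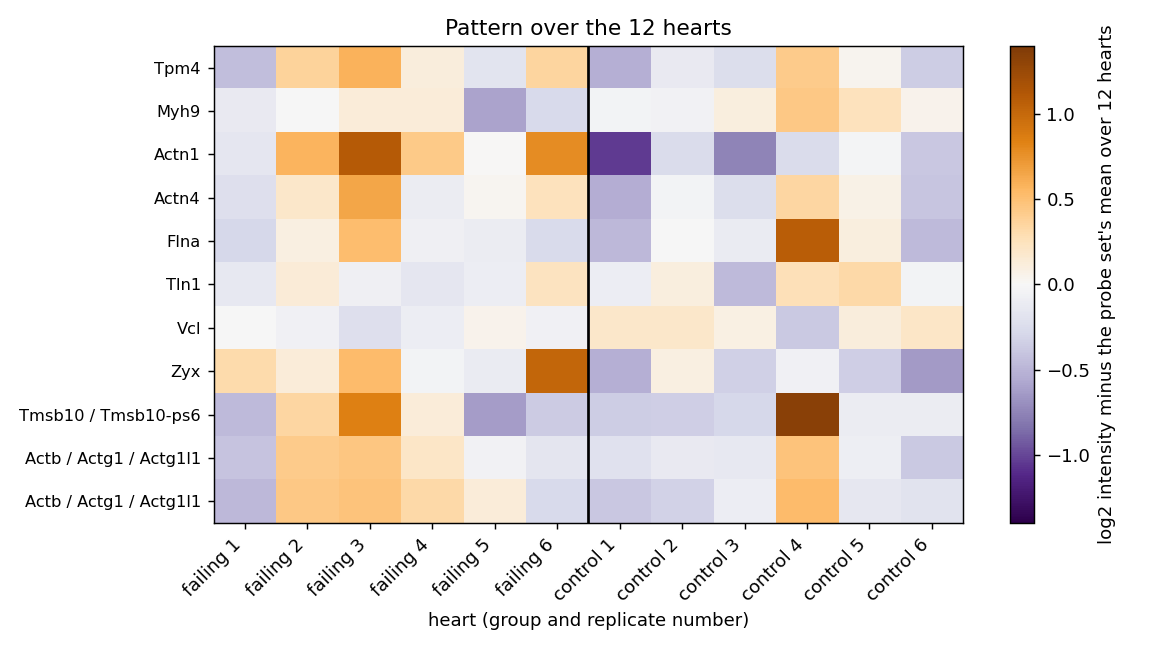
Log2 intensity minus each probe set's mean over the 12 hearts (colour scale) for the brightest probe set of 8 member genes and the 3 probe sets of several genes, by heart. Failing replicate 3 and control replicate 4 are high in most rows, and the Vcl probe set is low in both.

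Because Actn1, Tpm4 and Vcl include the gene that passed, a gene that varied with it, and a gene whose brightest probe set correlated negatively with Tpm4 and Actn4, their start regions are shown, 250 bases before to 50 after the annotated start, from RefSeq on build GRCr8. Windows were found for 8 of the 10 genes, 10 windows in all. Capitals mark CCAAT and GGGCGG on either strand. The GGGCGG motif was found in 8 of the 10 windows and in 33.1% of all 33469 windows of the same length, and CCAAT in 4 of the 10 and in 37.5% of all. The CArG box, the element that serum response factor binds, was found in 0 of the 10 and in 1.64% of all. A match is a description of the letters, and the windows do not hold more distant elements.
Actn1 (chr6:104826123-104826422, minus strand): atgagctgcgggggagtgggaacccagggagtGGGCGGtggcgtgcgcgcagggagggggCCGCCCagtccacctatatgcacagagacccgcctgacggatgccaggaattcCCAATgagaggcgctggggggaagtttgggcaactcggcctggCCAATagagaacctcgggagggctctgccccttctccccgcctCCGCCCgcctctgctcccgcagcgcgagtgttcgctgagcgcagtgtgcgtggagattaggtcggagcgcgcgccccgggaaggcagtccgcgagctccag
Tpm4 (chr16:17732434-17732733, minus strand): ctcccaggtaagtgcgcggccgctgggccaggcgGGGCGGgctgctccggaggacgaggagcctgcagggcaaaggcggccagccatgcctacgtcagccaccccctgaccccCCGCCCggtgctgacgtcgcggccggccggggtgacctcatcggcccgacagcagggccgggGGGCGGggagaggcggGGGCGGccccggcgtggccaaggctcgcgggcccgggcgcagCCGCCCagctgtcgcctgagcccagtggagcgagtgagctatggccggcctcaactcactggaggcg
Vcl (chr15:3404751-3405050, minus strand): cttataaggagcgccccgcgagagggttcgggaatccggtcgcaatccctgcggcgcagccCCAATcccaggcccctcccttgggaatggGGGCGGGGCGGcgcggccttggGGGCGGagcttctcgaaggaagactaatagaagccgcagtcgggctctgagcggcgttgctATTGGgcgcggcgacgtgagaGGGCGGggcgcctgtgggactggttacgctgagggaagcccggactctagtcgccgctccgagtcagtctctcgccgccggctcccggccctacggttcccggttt
The Actn1 window holds 2 CCAAT and 3 GGGCGG, that of Tpm4 0 and 5, and that of Vcl 2 and 4.

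The partners of these proteins at adhesions included genes that rose. Among 74 probe sets of 39 focal adhesion genes, 6 were called higher and 0 lower (8.11%, against 1.82% of all), with a median difference of 0.045. The lists were chosen with earlier results of these data known, so such shares describe them and do not test them. Calls were also more frequent at higher levels: the same fit of the 15521 brighter probe sets alone called 1039 of them. Pdlim5, a PDZ and LIM protein of actin and Z-discs, rose by 1.55 ± 0.24 in the probe set at 10.28 ± 0.54 in failing and 8.73 ± 0.45 in control hearts (adjusted p = 0.00886), and kept its call without any 1 heart. Its 3 other probe sets did not pass, and the brightest of them gave -0.059 ± 0.11 (adjusted p = 0.854). The LIM protein gene Csrp1 rose by 0.70 ± 0.15 and the tensin gene Tns3 by 0.53 ± 0.12 (adjusted p = 0.032 and 0.0356). Parva, which couples integrin-linked kinase to actin, rose by 0.95 ± 0.23, the integrin beta 1 gene Itgb1 by 0.52 ± 0.12, and Tgfb1i1, the paxillin relative Hic-5, by 0.51 ± 0.12 (adjusted p = 0.0429, 0.043 and 0.0464; named after their values were seen). Each of the 5 genes other than Pdlim5 lost its call without any of 6 to 9 hearts, with adjusted p up to 0.117. Tns3, Parva and Itgb1 have a second probe set that did not pass.

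Among 77 probe sets of 47 genes of actin filament dynamics, 3 were called higher and 0 lower (3.90%), with a median of 0.117. They belonged to the filament capping gene Capg (0.93 ± 0.21, adjusted p = 0.0356), the annexin gene Anxa1 (0.85 ± 0.18, adjusted p = 0.0299) and the cortactin gene Cttn (0.38 ± 0.09, adjusted p = 0.043). Each call was lost without any of 9 to 11 hearts (adjusted p up to 0.11).

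No probe set passed in the list of serum response factor, its cofactors and targets (15 probe sets, median -0.235) or among the muscle counterparts of the members (22 probe sets, median 0.026). An unadjusted p under 0.05 in limma was reached by 4 probe sets of the first list and 9 of the second, against 16.6% of all probe sets. The connective tissue growth factor gene Ccn2 had the smallest p of the first list (0.85 ± 0.28, adjusted p = 0.122). Tpm2, a tropomyosin of smooth and slow skeletal muscle, had the smallest p of the second (0.85 ± 0.23, adjusted p = 0.0648). The second also held Myh6, the alpha myosin heavy chain of cardiac muscle, at -1.03 ± 0.30 and -1.59 ± 0.44 in its 2 probe sets (adjusted p = 0.0868 and 0.0714). Without control replicate 4 both Myh6 probe sets passed as lower (-1.23 and -1.86, adjusted p = 0.0157 and 0.0154) and Actg2, a smooth muscle actin, as higher (1.04, adjusted p = 0.0322), and 0 passed in the list of serum response factor. Without that heart 8 were higher and 2 lower among the focal adhesion partners, and likewise among the genes of actin filament dynamics, where 6.10% of all probe sets were called.

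**Figure D4:**
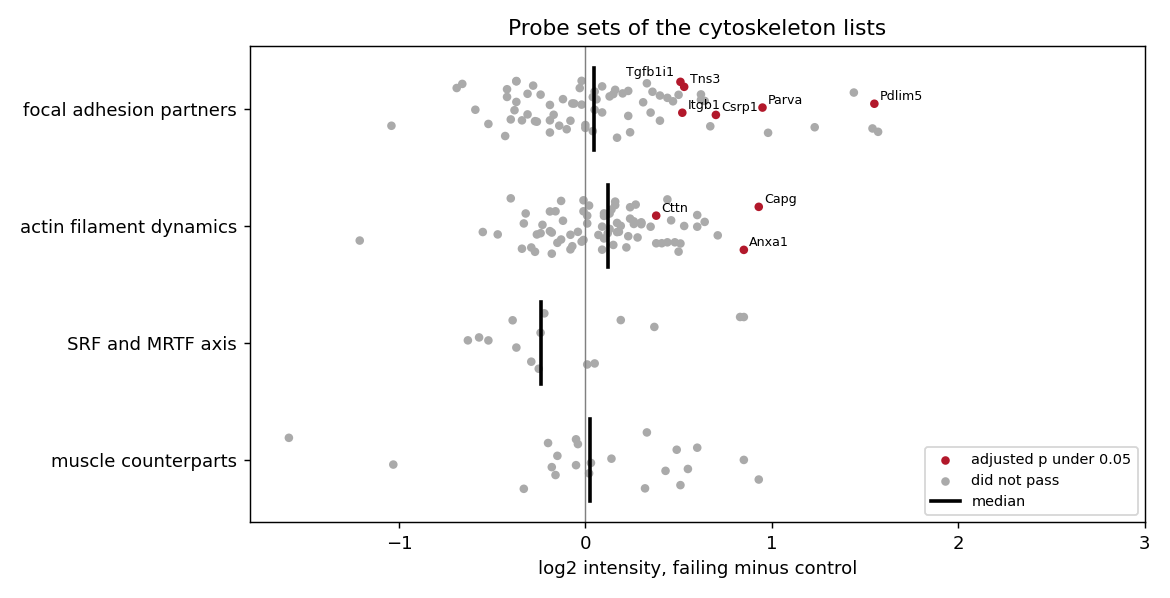
Log2 difference, failing minus control (horizontal axis), of every probe set in 4 lists of cytoskeleton genes; red points passed an adjusted p of 0.05 and black bars are medians. All 9 red points lie above 0, and the medians run from -0.235 to 0.117.

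Markers of other cell types moved between the groups as well, and their counts stand beside the 1.82% called over all probe sets. Of 13 macrophage probe sets 6 were called higher and 0 lower, and their summed intensity ran from 23198 to 57271 in failing and from 15999 to 26520 in control hearts. For fibroblasts 4 of 19 were higher and 0 lower, with sums from 77478 to 153792 in failing and from 61482 to 90860 in control hearts. Smooth muscle and pericyte markers had 1 higher and 1 lower of 18, with sums of 23920 to 36000 in failing and 19389 to 24052 in control hearts, and endothelial markers 2 higher and 1 lower of 15, with sums of 19606 to 25958 and 18139 to 22571. Cardiomyocyte markers had 0 calls among 20, with sums from 415989 to 624244 in failing and from 398415 to 630594 in control hearts, or from 563517 without control replicate 4. Without that heart 3 of the 20 passed as lower, both of Myh6 and 1 of Ryr2, the calcium release channel (-0.71, adjusted p = 0.00791), while 8 macrophage and 5 fibroblast probe sets passed as higher. Smooth muscle and pericyte markers then had 3 higher and 1 lower, and endothelial markers 5 higher and 1 lower, where 6.10% of all probe sets were called. The highest sums of the other control hearts were 24384 for macrophage and 19684 for endothelial markers. The heart with the highest fibroblast and macrophage sums was failing replicate 3, which was also the highest heart for Actn1 and Actn4. Vim, which marks fibroblasts and other mesenchymal cells, rose by 0.78 ± 0.15 and the matrix gene Postn by 1.31 ± 0.25 (adjusted p = 0.0214 each). The macrophage markers Ctss and Lgals3 rose by 1.23 ± 0.24 and 1.24 ± 0.27 (adjusted p = 0.0232 and 0.032). Of the smooth muscle markers, 1 probe set of Synpo2 gave 0.78 ± 0.15 and 1 of Smtn -0.67 ± 0.15 (adjusted p = 0.0196 and 0.0323). Their other probe sets did not pass. The endothelial markers Vwf and Emcn gave 1.10 ± 0.20 and -0.78 ± 0.17 (adjusted p = 0.0196 and 0.0356). The part of these cell types in the differences of Actn1 and Zyx was not tested.

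Lymphocyte markers had 0 calls among 13 probe sets, and their sums ran from 352 to 921 in failing hearts and from 553 to 686 in 5 control hearts, with 10208 in control replicate 4. Of the 10 genes of that list, Cd3d, Cd79b, Cd8a and Ms4a1 averaged an intensity below 50. Control replicate 4 was the highest heart for 5 of the 13 probe sets, by the largest margins for Nkg7 and Klrd1, and was below the mean of the other controls for Ms4a1 and Cd79b. Of the 13 macrophage probe sets it was the highest for 1. Platelet and blood cell markers had 0 calls among 6, with sums of 16445 to 46281 in failing and 18761 to 45307 in control hearts. The sum of 45307 was that of control replicate 4, and the other control hearts reached 36731. That heart was the highest of the 12 for 3 of these 6 probe sets, those of Alas2, Ppbp and Gp9. Alas2 was at 12.85 in it, between 9.11 and 11.31 in failing hearts, and between 8.81 and 10.19 in the other 5 control hearts. The white cell actin regulator Coro1a ran from 7.23 to 9.33 in failing hearts, and was at 12.68 in control replicate 4 and between 6.85 and 8.13 in the other 5 control hearts. Rac2, which regulates actin in blood cells, ran from 8.96 to 9.67 in failing hearts, and was at 13.03 in control replicate 4 and between 9.13 and 10.07 in the other 5 control hearts. The part of these cells in the high Flna, actin and Tmsb10 values of that heart was not tested.

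**Figure D5:**
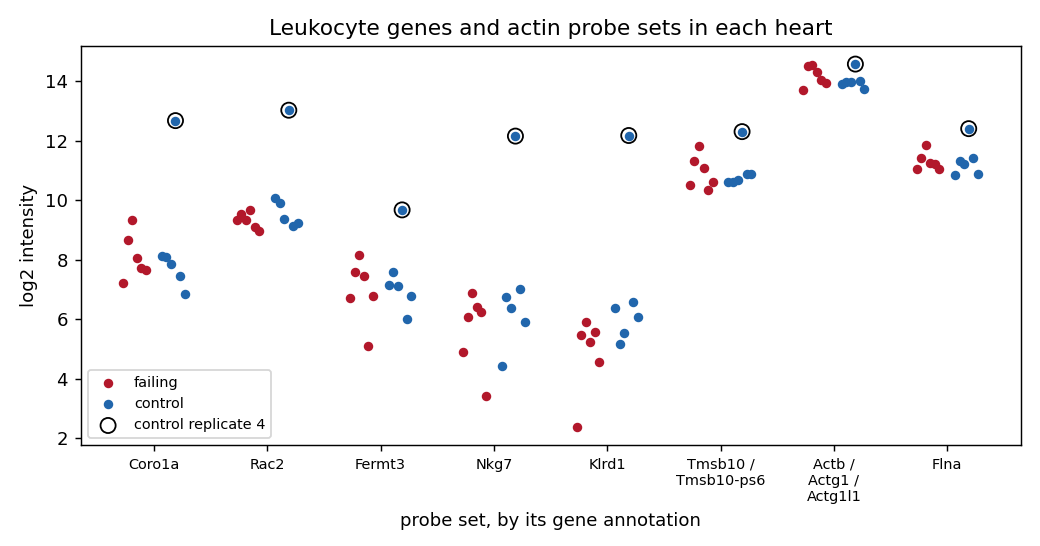
Log2 intensity (vertical axis) in each failing and control heart of 5 white blood cell genes, of 2 probe sets of several genes and of Flna; the circle marks control replicate 4. That heart is the highest of the 12 for each of the 8 probe sets, at 12.68 for Coro1a and 12.41 for Flna.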

How the data were processed

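The authors deposited 1 table of linear intensity values with a column for each of the 12 arrays. RMA appears without a version in the submitters' processing notes. It normally gives log2 values, so how these linear intensities were summarised is not known. The 57 control probe sets were set aside, and log2 was taken with no offset. Of the 31042 probe sets tested, 20837 carried 1 distinct gene symbol in the platform annotation, 425 several and 9780 none; all 8 member genes measured matched RefSeq. The groups were tested in R 4.3.3 using limma 3.58.1 (lmFit, eBayes with a trended prior variance). The model held group alone, and p-values were adjusted by Benjamini-Hochberg over all probe sets, with a threshold of 0.05. The trend was used because the median residual SD was 0.28 in the brighter and 1.078 in the dimmer probe sets (log2). The split was at the median mean level of 6.94. That the constant variance calls none over all probe sets was known when the trend was chosen. The SE is the moderated SE. The number of arrays limits the precision. The labels call the samples biological replicates.

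The members and gene lists were chosen with earlier results of these data known. The result of 1 pathway list is not reported here. Named genes are all members, up to 3 called genes in each direction for each pathway list or else the smallest p, and up to 2 of the smallest p for each marker list, the 6 genes most like the members, and muscle counterparts (Actn2, Flnc). Named outside the rule, with their values known, are the related Actg1, Tmsb4x, Myh10 and Tln2, and Parva, Itgb1 and Tgfb1i1. So are the genes given for control replicate 4 (Nkg7, Klrd1, Coro1a, Rac2, Fermt3, Cd79b, Alas2, Ppbp, Gp9). Myh6, Actg2 and Ryr2, given without that heart, were named in the same way. Correlations used 100000 permutations. Alternatives covered the variance model, dim probe sets, 1 probe set per gene, scaling, an offset of 32, array weights, the replicate number, RNA quality, an exact permutation test and leaving out each heart; the within-heart differences were added after the data were seen. The fit was tested on simulated data. Figures were drawn with matplotlib 3.10.9.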

Additional observations from a re-analysis of the deposited data

Results flagged for a closer look

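In 6 of the 38 groups of 6 hearts examined, 1 heart lay far from the others by Dixon's ratio, the gap to the nearest heart over the range of the group (Dixon's 95% critical value; chance flags about 1 in 20), and each time it was control replicate 4. It was high for the probe set of Tmsb10 and Tmsb10-ps6 (12.31, next 10.87 log2, ratio 0.848), for the middle beta-actin control probe set (14.33, next 13.35, ratio 0.779), for both probe sets of Actb, Actg1 and Actg1l1 (14.58 and 14.72, ratios 0.66 and 0.672) and for Flna (12.41, next 11.44, ratio 0.626). It was low for Vcl probe set 1 (0.54 below the mean of the other controls, next 12.46, ratio 0.8). These probe sets share genes or a heart and are not independent.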

How the results depend on the processing

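The calls over all probe sets (380 higher, 186 lower) depended on the variance model and on single hearts. They were 0 and 0 with a constant prior variance over all probe sets. Among the brighter probe sets alone they were 429 and 230 with a constant variance, and 620 and 419 with the trend. They were 769 and 676 with array weights, and 344 and 91 after median centring. With 1 heart left out they lay between 36 and 930 higher and between 3 and 964 lower. The 1 member call became 0 with a constant variance and 2 with array weights (Actn1 and Zyx), and lay between 0 and 2 without 1 heart. The 10 calls in all pathway lists tested became 0 with a constant variance and lay between 1 and 35 without 1 heart. Among the brighter probe sets alone, the constant variance gave 1 member call and 10 calls in these lists. With the replicate block the calls were 332 higher and 99 lower, 1 member and 6 in the lists. Same-numbered hearts deviated together in 1 of 6 pairs (r = 0.23, the others from -0.06 to 0.07). Of the 6 failing hearts, 2 correlated best with the control heart of their own number. Such correlations cannot decide whether the numbers pair the hearts. Array weights turned the sign of Flna (0.092), Tln1 (0.004) and the Tmsb10 probe set (0.14), none of which passed. Without 1 heart Flna ran from -0.15 to 0.17, Tln1 from -0.13 to 0.029, Vcl probe set 3 from -0.084 to 0.022 and the Tmsb10 probe set from -0.22 to 0.22. Of 281 member results under alternatives, 259 kept their direction and their side of the threshold. Most of the 281 are of probe sets that did not pass in the main fit. The 9 that lost a call were all of Actn1 probe set 1, the 1 member probe set called. The causes were not tested. The adjusted p of Actn1 was 0.0419 among the brighter probe sets with a constant variance.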

Other observations

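The genes whose log2 values over the 12 hearts were most like the mean of the 8 member genes were Sh3pxd2b (Pearson's r = 0.94), an adaptor of podosomes, Rpp21 (0.94), Slc20a1 (0.93), the kinase gene Slk (0.93), Slc25a24 (0.93) and Zswim8 (0.92), with limma adjusted p between failing and control hearts from 0.184 to 0.601. With group means taken out, Rpp21, Sh3pxd2b, Polr1f, Slk, Tmem100 and Thbs3 led (r from 0.91 to 0.93). These correlations describe 12 arrays that share their scaling, and were picked as the highest of many.

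Without control replicate 4, 1894 probe sets were called, against 566 with it, and all pathway lists tested held 35 calls against 10. The integrin activator of blood cells Fermt3 ran from 5.12 to 8.18 in failing hearts, and was at 9.68 in control replicate 4 and between 6.03 and 7.58 in the other 5 control hearts.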
